A study of Mus musculus with 11 samples.

Results

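The genes described here are 10 immediate-early genes of neuronal activity, Fos, Fosb, Junb, Egr1, Egr3, Egr4, Arc, Npas4, Nr4a1 and Btg2, chosen by symbol from the 25938 genes of the deposited count table. All 10 were found there. Their unique molecular identifier (UMI) counts, in which each captured RNA molecule is counted once, were summed per library over all nuclei, over each deposited cell class and over the deposited neuronal clusters 0, 1, 2, 5 and 9. Levels are given as CPM, the gene's count scaled by all UMIs of the same sum.

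Immediate-early genes are transcribed within minutes of synaptic activity or growth factor signalling, without new protein synthesis, through factors already bound at their promoters such as CREB and serum response factor. Their RNAs are short-lived, so that their levels in brain follow recent activity. Fos, Fosb and Junb encode subunits of the AP-1 transcription factor. Egr1, Egr3 and Egr4 encode zinc finger transcription factors of one family, Npas4 a bHLH-PAS factor of neurons that responds to calcium, and Nr4a1 an orphan nuclear receptor. Arc is an effector at the synapse that takes part in the removal of AMPA receptors, and Btg2 encodes an antiproliferative protein that takes part in mRNA deadenylation.

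The study measured nuclear RNA in single nuclei of frozen mouse brain, with 11 libraries in 4 dosing groups. All mice carried the human transferrin receptor as a homozygous knock-in (hTfR KI HOM), a receptor by which transport vehicle (TV) proteins can be carried across the blood-brain barrier, and all were dosed intravenously 4 times, weekly, with tissue taken 72 h after the last dose. ATV:BACE1, the control that carried no antisense oligonucleotide (ASO), was given at 57 mg/kg (3 libraries). OTV:Malat1, which joins the TV to an ASO against the nuclear RNA Malat1, and nonTV:Malat1, titled RSV-ASO in the labels, were each given at 60 mg/kg (3 libraries each), and the free Malat1 ASO at 2.5 mg/kg (2 libraries). Replicate number 1 was female and 2.33 months old in every group, replicate 4 male and 2.57 months, and replicate 5 male and 2.33 months. Replicate 4 of Malat1 ASO was not analysed here. The deposited batch number follows the replicate number. Replicates 4 and 5 thus share their sex and replicates 1 and 5 their age, while replicates 1 and 4 differ in both. The batch differs between all 3 numbers and cannot be told apart from sex or age where these differ too. The labels give the posterior part of the brain, while the deposited metadata give cortex and the strain C57BL/6J. In neurons the cerebellar granule cell gene Gabra6 was near 0 (0.088 CPM). The deposited pericyte class carried the endothelial genes Flt1 and Cldn5 at 4270 and 2159 CPM beside the pericyte genes.

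The libraries held 7546 to 13840 nuclei and 33235994 to 43972886 UMIs each, 110304 nuclei in all, with a median of 2859 UMIs per nucleus. Libraries shared 0.154% to 0.551% of their cell barcodes over the 55 pairs, and 10.4% of the nuclei carried the deposited doublet call and were kept. The targeted RNA, Malat1, stood at 46616 ± 5712 CPM of all nuclei (SD, n = 3) in OTV:Malat1, 77900 ± 5153 (n = 3) in ATV:BACE1, 78291 ± 4894 (n = 3) in nonTV:Malat1 and 80108 ± 1939 (n = 2) in Malat1 ASO, and the OTV:Malat1 libraries lay below all the others. The nuclei called neurons carried the neuronal genes Rbfox3 at 511 CPM and Syt1 at 2851 CPM. Neurons made up 60.8% to 66.7% of nuclei in the replicate 1 libraries, 64.6% to 70.0% in replicate 4 and 71.7% to 80.9% in replicate 5. Their median UMI count was 4071 to 4982, 3728 to 5259 and 2567 to 3831, in the same order. Nothing in the labels says whether each library came from a separate animal, so the p-values measure the spread between these libraries.

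Promoters of 7 of the 10 genes are held in the RefSeq table used here (build GRCm38.p6). Windows of the 250 bases before the start were searched on both strands for the core TGACG of the cAMP response element, for the full element TGACGTCA (which holds that core), for TATAAA, and for the CArG box, the serum response factor site. The core TGACG was found in 7 of the 7 windows, against 17.8% of all 32851 windows of that length. The full element was found in 1 (Btg2; 1.55% of all windows), TATAAA in 1 (Fos; 12.4%) and the CArG box in 0 (1.47%). These are matches of letters, not measured binding. Bases further upstream were not searched, and Egr1, Egr3 and Arc are not in that table. The windows held 58.4% (Fos) to 74.4% (Nr4a1) G and C, and the shares over all windows were not matched for this. The windows of Fos, Junb, Nr4a1 and Btg2 are shown as the examples with TATAAA (Fos), with 1 core (Junb), with the most cores (Nr4a1) and with the full element (Btg2). Sequences run 5′ to 3′ along the gene, and capitals mark TGACG, its reverse complement CGTCA, or the full element.
Fos (chr12:85473640-85473889, plus strand): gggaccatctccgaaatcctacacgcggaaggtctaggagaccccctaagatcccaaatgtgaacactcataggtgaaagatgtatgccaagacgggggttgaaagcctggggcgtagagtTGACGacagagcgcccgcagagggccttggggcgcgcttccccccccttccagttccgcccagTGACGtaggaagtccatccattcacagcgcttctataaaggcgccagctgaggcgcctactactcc
Junb (chr8:84978749-84978998, minus strand): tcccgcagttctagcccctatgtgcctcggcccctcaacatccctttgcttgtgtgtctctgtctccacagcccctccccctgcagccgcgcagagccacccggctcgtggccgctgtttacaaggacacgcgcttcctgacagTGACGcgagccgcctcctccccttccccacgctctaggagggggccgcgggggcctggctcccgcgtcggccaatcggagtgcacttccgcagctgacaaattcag
Nr4a1 (chr15:101266596-101266845, plus strand): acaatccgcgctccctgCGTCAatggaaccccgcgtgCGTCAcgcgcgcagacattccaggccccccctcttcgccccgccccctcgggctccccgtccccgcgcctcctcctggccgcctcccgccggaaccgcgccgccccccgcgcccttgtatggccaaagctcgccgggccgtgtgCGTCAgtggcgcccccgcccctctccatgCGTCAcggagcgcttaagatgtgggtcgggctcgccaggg
Btg2 (chr1:134079156-134079405, minus strand): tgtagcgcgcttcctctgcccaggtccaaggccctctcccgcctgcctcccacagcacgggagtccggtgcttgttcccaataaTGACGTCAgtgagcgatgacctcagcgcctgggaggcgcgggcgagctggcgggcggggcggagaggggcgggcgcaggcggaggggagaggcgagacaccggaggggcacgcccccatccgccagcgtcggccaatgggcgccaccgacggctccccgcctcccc

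In these windows the Fos cores lay 129 to 125 and 66 to 62 bases before the start, with TATAAA at 33 to 28. The single Junb core lay at 106 to 102, and the full element of Btg2 at 166 to 159. Nr4a1 held 4 cores, at 233 to 229, 213 to 209, 69 to 65 and 40 to 36, and its window lies within the longer annotated span of the gene (chr15:101254269-101274795, ENSMUSG00000023034). The Fos gene (ENSMUSG00000021250) is annotated at chr12:85473890-85477273, Junb (ENSMUSG00000052837) at chr8:84974484-84978718 and Btg2 (ENSMUSG00000020423) at chr1:134075170-134079120 in GRCm38.

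The AP-1 genes were lowest in neurons in the replicate 4 libraries of every group that had one. Junb measured 79.5, 10.4 and 62.0 CPM in replicates 1, 4 and 5 of ATV:BACE1, 38.8, 10.7 and 36.4 in nonTV:Malat1, 36.2, 11.7 and 29.4 in OTV:Malat1, and 31.4 and 37.9 in replicates 1 and 5 of Malat1 ASO. The 3 replicate 4 libraries lay below the other 8 without overlap, and the ATV:BACE1 replicates 1 and 5 stood above all the rest. Fos, the AP-1 subunit most used as a marker of activated neurons, measured 20.01, 2.87 and 13.5 CPM in ATV:BACE1, 8.89, 4.42 and 8.67 in nonTV:Malat1, 11.2, 4.21 and 6.64 in OTV:Malat1, and 9.13 and 10.3 in Malat1 ASO, in the same order. Fosb, whose product also forms AP-1 with Jun proteins, ranged from 2.78 to 9.27 CPM, with ATV:BACE1 holding both the lowest library (replicate 4) and the highest (replicate 1).

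The EGR genes showed the same split for Egr1 and Egr4, and a partial one for Egr3. Egr1 measured 59.0, 17.3 and 47.3 CPM in ATV:BACE1, 34.6, 16.9 and 31.1 in nonTV:Malat1, 36.7, 16.5 and 28.3 in OTV:Malat1, and 26.2 and 33.4 in Malat1 ASO. Egr4 had the widest range of the 10 genes as a fold (10.1), from 2.71 CPM in ATV:BACE1 replicate 4 to 27.4 in ATV:BACE1 replicate 1, with 15.1, 3.87 and 11.2 in nonTV:Malat1, 15.5, 3.37 and 6.41 in OTV:Malat1, and 13.7 and 12.7 in Malat1 ASO. For both genes all replicate 4 libraries lay below the 8 others. Egr3 measured 24.2, 7.97 and 14.2 CPM in ATV:BACE1, 23.9, 12.2 and 15.7 in nonTV:Malat1, 27.6, 14.98 and 14.4 in OTV:Malat1, and 27.2 and 23.0 in Malat1 ASO. It was the gene of the 10 whose replicate 4 libraries overlapped the others: replicate 4 of OTV:Malat1 lay above replicate 5 of OTV:Malat1 and of ATV:BACE1.

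Among the remaining genes, the synaptic effector Arc measured 48.6, 6.95 and 27.4 CPM in ATV:BACE1, 21.3, 6.15 and 18.5 in nonTV:Malat1, 26.9, 6.47 and 13.2 in OTV:Malat1, and 19.4 and 25.0 in Malat1 ASO. Btg2 measured 49.5, 8.55 and 38.3 CPM in ATV:BACE1, 33.2, 13.4 and 27.9 in nonTV:Malat1, 28.9, 11.2 and 20.02 in OTV:Malat1, and 27.9 and 31.0 in Malat1 ASO. The calcium-responsive Npas4 ranged from 6.09 CPM in ATV:BACE1 replicate 4 to 22.8 in ATV:BACE1 replicate 1. All 3 genes were lowest in the replicate 4 libraries. Nr4a1 had the narrowest range, 2.00-fold between its lowest and highest library, at 63.0, 39.2 and 56.2 CPM in ATV:BACE1, 70.3, 45.2 and 56.8 in nonTV:Malat1, 76.9, 46.7 and 52.2 in OTV:Malat1, and 78.2 and 59.2 in Malat1 ASO. Its replicate 4 libraries again lay below the rest, but its highest library was replicate 1 of Malat1 ASO rather than of ATV:BACE1. Between 2172 UMIs (Fosb) and 21127 UMIs (Nr4a1) in neurons lie behind these levels. In sums over nuclei, fewer nuclei with an RNA and less RNA per nucleus cannot be told apart.

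**Figure D1:**
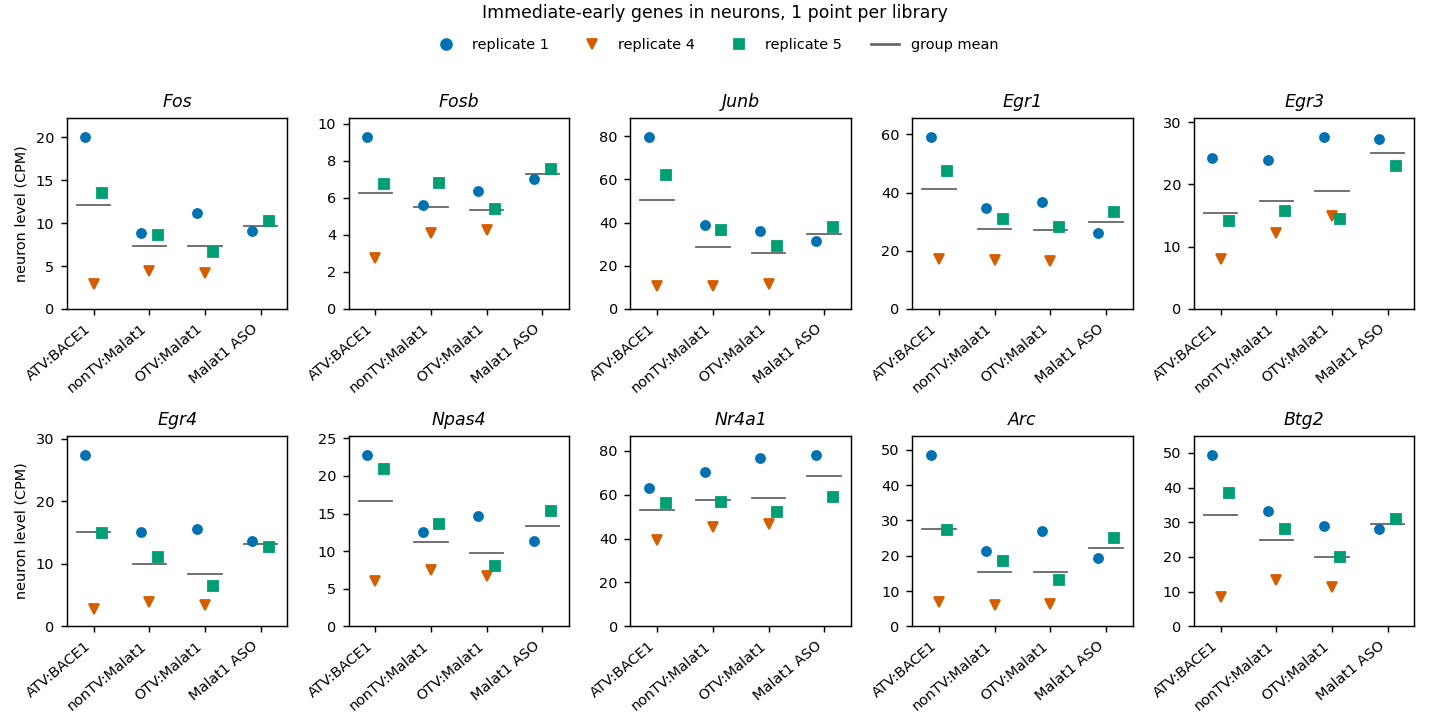
Level of each gene in neurons (y axis, CPM, from 0) by dosing group (x axis), with 1 point per library marked by replicate number. The replicate 4 points are the lowest of their group in all panels but the OTV:Malat1 group of Egr3, and Junb runs from 10.4 to 79.5 CPM.

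In neurons all 10 genes fell from replicate 1 to replicate 4 (edgeR's quasi-likelihood test with dosing group and replicate number in the model, Benjamini-Hochberg adjusted p under 0.05 over 20719 genes), while 16.7% of all genes tested were called lower in that comparison. The 10 genes move together and are not independent of each other. They were chosen with earlier results of these data known, so their counts are descriptions and no independent support. Egr4 fell by 2.36 ± 0.23 on the log2 scale (SE; 5.14-fold lower, adjusted p = 5.12e-05), Arc by 2.07 ± 0.22 (4.19-fold, adjusted p = 6.66e-05) and Junb by 2.02 ± 0.18 (4.05-fold, adjusted p = 3.24e-05). Fos fell by 1.60 ± 0.25, Btg2 by 1.59 ± 0.19, Egr1 by 1.19 ± 0.13, Npas4 by 1.13 ± 0.22, Egr3 by 1.01 ± 0.13 and Fosb by 0.84 ± 0.18. The fall was least for Nr4a1, at 0.63 ± 0.08 (1.55-fold, adjusted p = 0.000117). The median log2 change of the 10 genes was -1.39, beside 0.01 over all genes tested.

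Replicate 5 lay between the others. Against replicate 1, 4 of the 10 genes fell in neurons, beside 15.4% of all genes: Egr4 by 0.73 ± 0.18 on the log2 scale (adjusted p = 0.00717), Egr3 by 0.70 ± 0.12 (adjusted p = 0.000636), Arc by 0.50 ± 0.17 (adjusted p = 0.0428) and Nr4a1 by 0.43 ± 0.07 (adjusted p = 0.000491). The other 6 had log2 changes of -0.38 (Fos) to -0.16 (Fosb) and did not pass. Against replicate 4, 8 of 10 rose in replicate 5, beside 10.7% of all genes called higher. Junb rose by 1.82 ± 0.18, Egr4 by 1.63 ± 0.24, Arc by 1.57 ± 0.22, Btg2 by 1.28 ± 0.19, Fos by 1.23 ± 0.25, Egr1 by 0.99 ± 0.13, Npas4 by 0.96 ± 0.23 and Fosb by 0.68 ± 0.18 on the log2 scale. Egr3 (0.31 ± 0.14, adjusted p = 0.130) and Nr4a1 (0.21 ± 0.08, adjusted p = 0.0721) were the genes that did not pass. The 3 comparisons share libraries. Arc against replicate 1 and Fosb and Npas4 against replicate 4 lost their calls in some of the alternatives: Arc gave adjusted p = 0.139 with DESeq2 and 0.0971 with total counts as library size, and between 0.0569 and 0.191 without replicate 1 or 5 of ATV:BACE1, replicate 4 or 5 of nonTV:Malat1, or replicate 1 or 5 of OTV:Malat1. Fosb gave adjusted p = 0.146 without ATV:BACE1 replicate 4, 0.0514 without ATV:BACE1 replicate 5 and 0.0694 without nonTV:Malat1 replicate 5, and Npas4 0.0885 without ATV:BACE1 replicate 4.

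The libraries also differed by replicate number in the share of neurons and in the neurons' median depth, given above, and replicate 5 stood apart in both more than replicate 4. Their part in the result was not tested. With total counts in place of TMM scaling, the share of lower calls over all genes in neurons moved from 49.8% to 60.9% for replicate 4 against 1, from 46.6% to 29.0% for 5 against 1, and from 48.6% to 13.9% for 5 against 4, and the median change of all genes in the last comparison moved from 0.03 to 0.15. The signs of the 10 genes in these 3 comparisons were the same under that scaling, under DESeq2's and with Malat1 left out.

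**Figure D2:**
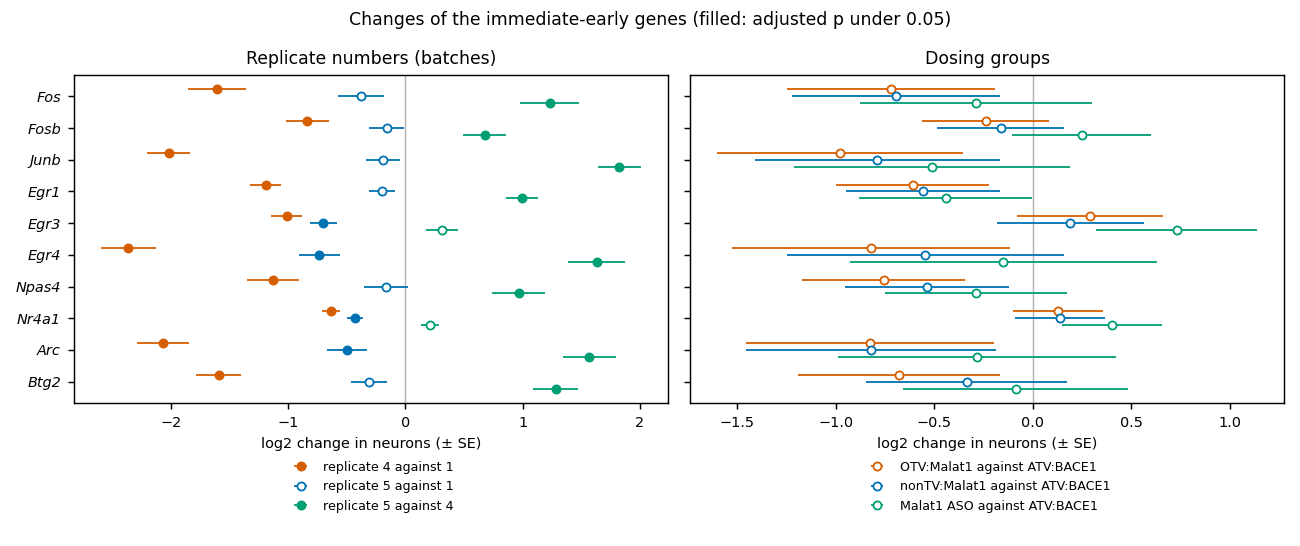
Log2 change with its standard error (x axis) of each gene (y axis) in neurons, between replicate numbers and between dosing groups, with filled points where the adjusted p was under 0.05. The changes from replicate 1 to 4 run from -2.36 (Egr4) to -0.63 (Nr4a1) and are all filled, and no point between dosing groups is filled.

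Other genes of the activity response were taken from lists of 29 further primary-response genes, 10 late or effector genes and 17 upstream regulators. The lists were chosen with earlier results of these data known, so their counts are descriptions and no independent support. Of the 29 primary-response genes, 23 fell and 1 rose in neurons from replicate 1 to 4, with a median log2 change of -0.90, while 16.7% of all genes tested were called lower and 16.9% higher. Egr2, the EGR family gene outside the 10, fell by 2.04 ± 0.23, Ier2 by 2.01 ± 0.25, the secreted matricellular gene Ccn1 by 2.00 ± 0.19, the MAP kinase phosphatase Dusp6 by 1.31 ± 0.18 and the AP-1 subunit Jun by 0.75 ± 0.09. The one that rose was Maff, a small Maf factor, by 0.67 ± 0.23. Against replicate 1, 14 of the 29 fell in replicate 5 and 0 rose, beside 15.4% of all genes lower and 17.7% higher. From replicate 4 to 5, 18 rose and 0 fell, beside 10.7% of all genes higher and 10.1% lower, among them Ier2 by 1.63 ± 0.26 and Egr2 by 1.30 ± 0.25.

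Of the 10 late or effector genes, 6 fell and 1 rose from replicate 1 to 4, with a median of -0.38. The shares over all genes are those given for the primary-response genes, here and for the regulators, and no test between the lists was made. Rgs2, a regulator of G protein signalling, fell by 0.94 ± 0.11, the synaptic pentraxin Nptx2 by 0.73 ± 0.10, the neuropeptide precursor Vgf by 0.64 ± 0.10 and the synaptic scaffold Homer1 by 0.47 ± 0.07, while the activin subunit Inhba rose by 0.84 ± 0.08. Against replicate 1, Homer1 also fell in replicate 5, by 0.82 ± 0.06. From replicate 1 to 5, 3 fell and 1 rose, and from replicate 4 to 5, 5 rose and 1 fell. Of the 17 upstream regulators, 2 fell and 2 rose from replicate 1 to 4, with a median of -0.08: the coactivator Ep300 fell by 0.24 ± 0.06 and Mef2d by 0.19 ± 0.06, and Mef2c and Elk3 rose by 0.33 ± 0.05 and 0.35 ± 0.09. From replicate 1 to 5, 7 of these regulators fell and 2 rose, and from replicate 4 to 5, 5 fell and 1 rose.

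The same comparisons were made in all nuclei and in each neuronal cluster. The shares of all genes given here and for the glial classes below belong to the main fit. Counts under alternatives are given without such a share. They therefore do not tell a change of these genes from a change of calls over all genes. In all nuclei all 10 genes fell from replicate 1 to 4, beside 16.5% of all genes, 3 fell from replicate 1 to 5 (Egr3, Egr4 and Nr4a1; 14.9% of all genes), and all 10 rose from replicate 4 to 5 (9.69%). Without replicate 4 of ATV:BACE1 the last count became 5, and the 3 became 5 without that library or without either Malat1 ASO library. Cluster 0 carried the excitatory gene Slc17a7 at 155 CPM. There 10 of 10 fell from replicate 1 to 4 (14.1% of all genes), 4 fell from 1 to 5 (14%) and 8 rose from 4 to 5 (9.02%). Cluster 2 carried the inhibitory genes Gad1 at 103 CPM and Gad2 at 133 CPM. In it 10 of 10 fell from replicate 1 to 4 (10.8% of all genes), 4 fell from 1 to 5 (14.4%) and 9 rose from 4 to 5 (6.3%). Egr4 in cluster 2 fell by 2.89 from replicate 1 to 4 on the log2 scale, and Junb by 2.37. The calls from replicate 1 to 4 stood within 1.5 times under each alternative in both clusters, but those of replicate 5 did not. From 1 to 5, DESeq2 called 2 genes in cluster 0 and 1 in cluster 2, cluster 0 gave 2 without replicate 1 or 5 of ATV:BACE1 or of OTV:Malat1, and cluster 2 gave 7 without either Malat1 ASO library and 8 with no filter on low counts. From 4 to 5, leaving out replicate 4 of ATV:BACE1 brought 8 calls to 4 in cluster 0 and 9 to 5 in cluster 2.

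Cluster 1, which carried Gad1 at 117 CPM and Gad2 at 155 CPM and also the excitatory gene Slc17a6 at 64.0 CPM, had 7 of 10 genes lower in replicate 4 than in replicate 1 (10.2% of all genes), 0 from 1 to 5 (6.92%) and 6 higher from 4 to 5 (7.54%). Without replicate 4 of ATV:BACE1 the 6 became 2, and from 1 to 5 there was 1 call without replicate 1 or 5 of ATV:BACE1 and 2 with no filter. The genes that did not pass in the step from replicate 1 to 4 there were Fosb (-0.03), Npas4 (-0.17) and Egr3 (-0.54). Cluster 5 held 71.5% neurons, 15.2% astrocytes and 13.0% oligodendrocytes by deposited class, and the precursor markers Pdgfra at 136 CPM and Vcan at 177 CPM. In it 7 of 10 fell from replicate 1 to 4 (5.08% of all genes), 0 from 1 to 5 (6.56%) and 7 rose from 4 to 5 (2.92%), with Egr4 lower by 3.28 in the first step. These counts changed most without called doublets and with another tool: without called doublets 0 passed from replicate 1 to 4 and 1 from 4 to 5, and with DESeq2 2 and 0. Without replicate 4 of ATV:BACE1, 3 rose from 4 to 5, and without either Malat1 ASO library or replicate 5 of nonTV:Malat1, 1 passed from 1 to 5. Cluster 9, whose sums carried the myelin gene Mbp at 1025 CPM beside Gad1 at 102 CPM, had 5 of the 10 genes above the filter on low counts. Of these Junb fell by 2.07 ± 0.36 and Btg2 by 1.14 ± 0.33 from replicate 1 to 4 (1.57% of all genes), 0 fell from 1 to 5 (1.35%), and the same genes, Junb and Btg2, rose from 4 to 5 (1.55%). In both steps 0 passed with DESeq2 and 0 without called doublets, and 4 with no filter. Leaving out 1 library left 1 of the 2 calls for 8 of the 11 libraries in the step from 1 to 4 and for 5 of them in that from 4 to 5. Whether the change differed between clusters was not tested.

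Outside neurons fewer of the genes passed the filter on low counts and fewer were called. In astrocytes, with 9 of the 10 tested, Junb fell by 1.07 ± 0.19 on the log2 scale from replicate 1 to 4, Arc by 0.85 ± 0.25 and Btg2 by 0.67 ± 0.17, beside 3.77% of all genes. From replicate 1 to 5, 1 gene fell in astrocytes, Arc by 0.69 ± 0.24 (5.33% of all genes), and 0 rose from 4 to 5 (2.62%). The 3 calls from 1 to 4 became 1 with DESeq2 and without replicate 1 or 4 of ATV:BACE1 or replicate 1 of nonTV:Malat1, and 5 with total counts, with no filter or without replicate 5 of OTV:Malat1. The Arc call from 1 to 5 was lost in all alternatives but no filter and leaving out either Malat1 ASO library. In oligodendrocytes, also with 9 tested, 6 fell from replicate 1 to 4: Egr4 by 1.50 ± 0.35, Arc by 1.21 ± 0.29, Junb by 1.06 ± 0.21, Nr4a1 by 0.84 ± 0.27, Btg2 by 0.80 ± 0.25 and Egr1 by 0.58 ± 0.18, beside 4.71% of all genes. There 0 fell from 1 to 5 (4.08%) and 1, Btg2, rose from 4 to 5 by 0.97 ± 0.26 (2.48%). With DESeq2 the 6 became 1 and the Btg2 rise was not called. The 6 also became 2 without replicate 4 of OTV:Malat1 or replicate 1 or 4 of nonTV:Malat1, and 3 without replicate 4 of ATV:BACE1 or replicate 1 of OTV:Malat1. The Btg2 rise also lost its call without nuclei under 1000 UMIs and without replicate 4 or 5 of ATV:BACE1, replicate 4 or 5 of OTV:Malat1 or replicate 4 of nonTV:Malat1. In the remaining deposited classes, where 1 to 6 of the genes could be tested, 0 were called between replicate numbers, beside 1.38% of all gene by comparison tests. The astrocyte and oligodendrocyte sums also carried the neuronal gene Syt1, at 251 ± 59.7 and 303 ± 54.0 CPM (SD, n = 11), against 2851 ± 225 CPM in neurons. The part of RNA from other nuclei in the glial values was not tested.

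Between dosing groups, 0 of the 10 genes were called in any of 5 comparisons by edgeR's quasi-likelihood test on dosing group alone. This holds in all nuclei (0% of all gene by comparison tests called), in neurons (0%), in the other deposited classes (0.00311%) and in the 5 clusters (0.00156%). In the other classes 1 to 9 of the 10 genes were tested. Vascular smooth muscle lacked the comparisons against ATV:BACE1, and perivascular macrophages were not tested. In all nuclei the targeted Malat1 was not called either, though its OTV:Malat1 libraries lay below all the others. The 0 calls therefore do not show that dosing left these genes unchanged. At an unadjusted p under 0.05 there were 0 of 50 member tests in all nuclei, 0 of 50 in neurons, 17 of 177 in the other classes and 5 of 225 in the clusters, beside 0.958%, 0.907%, 2.55% and 1.45% of all gene by comparison tests. DESeq2 without a block also called 0 of the member tests. Over all genes it called 0 to 2 per comparison in all nuclei and 0 or 1 in neurons. For OTV:Malat1 against ATV:BACE1 it called 1 gene in each, and that gene was lower. With the replicate number as a block, which these libraries share as a batch, the same counts were 14, 17, 23 and 69, beside 5.1%, 4.9%, 4.76% and 5.06% of all tests. The 5 comparisons share libraries and most of the genes move together within replicate numbers, Egr3 and Nr4a1 less so with the others. These tests are therefore not independent, and edgeR's adjusted test still called 0 in all nuclei, in neurons and in the other classes. DESeq2 with the block called 3, each for Malat1 ASO against ATV:BACE1: Egr1 in all nuclei (-0.58 ± 0.14, adjusted p = 0.0258, beside 0.0609% of all genes lower), and in neurons Egr1 (-0.66 ± 0.15, adjusted p = 0.00843, beside 0.0749% lower) and Egr3 (0.61 ± 0.16, adjusted p = 0.0392, beside 0.272% higher).

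Set against ATV:BACE1, neurons of OTV:Malat1 libraries had lower levels of 8 of the 10 genes, none of them called, with a median log2 change of -0.70 beside 0.01 over all genes. Junb gave a log2 change of -0.98 ± 0.63, Arc -0.83 ± 0.63, Egr4 -0.82 ± 0.70, Npas4 -0.76 ± 0.42, Fos -0.72 ± 0.53, Btg2 -0.68 ± 0.51, Egr1 -0.61 ± 0.39 and Fosb -0.24 ± 0.32 (SE). Egr3 (0.29 ± 0.37) and Nr4a1 (0.13 ± 0.23) had positive values. The lowest unadjusted p among them was 0.0948 (Npas4), and each adjusted p was 1.00. Fosb, Egr3 and Nr4a1 changed sign in at least 1 of the alternatives.

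The other groups gave values of the same order against ATV:BACE1, whose libraries these comparisons share. In nonTV:Malat1, Junb gave a log2 change of -0.79 ± 0.62 and Arc -0.82 ± 0.63, and the median of the 10 was -0.54. In Malat1 ASO, Junb gave -0.51 ± 0.70, Egr3 0.73 ± 0.41 and Nr4a1 0.40 ± 0.25, with a median of -0.22. OTV:Malat1 against nonTV:Malat1 had a median of -0.07, with Junb at -0.19 ± 0.62 and Arc at -0.01 ± 0.63, and OTV:Malat1 against Malat1 ASO a median of -0.47. Malat1 ASO has no replicate 4 here, so that contrasts with it also hold the difference between replicate numbers: with the block the median was -0.21 for OTV:Malat1 against Malat1 ASO and -0.46 for Malat1 ASO against ATV:BACE1. With the replicate number as a block the standard errors were smaller: Junb gave -0.81 ± 0.18 in OTV:Malat1, -0.67 ± 0.18 in nonTV:Malat1 and -0.80 ± 0.20 in Malat1 ASO against ATV:BACE1, with adjusted p = 0.882, 1.00 and 0.214.

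Within replicate numbers the difference between OTV:Malat1 and ATV:BACE1 was not the same in each. Junb gave log2 ratios of -1.14 in replicate 1, 0.17 in replicate 4 and -1.08 in replicate 5. Fos gave -0.84, 0.55 and -1.03, Egr4 -0.82, 0.31 and -1.22, Arc -0.85, -0.11 and -1.05, Btg2 -0.78, 0.39 and -0.94, Npas4 -0.63, 0.13 and -1.38, and Egr1 -0.68, -0.07 and -0.74, in the same order. For these 7 genes, replicates 1 and 5 were each below their ATV:BACE1 partner by more than 0.6, while replicate 4, where both groups were low, was within 0.6 of it. Fosb gave -0.54, 0.61 and -0.31. Egr3 (0.19, 0.91 and 0.03) and Nr4a1 (0.29, 0.25 and -0.10) showed no such pattern. The levels given above were also lower outside OTV:Malat1. For Junb, Fos, Egr1, Arc and Btg2, replicates 1 and 5 of nonTV:Malat1 and of Malat1 ASO lay below their ATV:BACE1 partners. Not all of these differences were larger than 0.6. The lower levels in replicates 1 and 5 were therefore not particular to OTV:Malat1, and all these comparisons share the ATV:BACE1 libraries.

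With the replicate number as a block, 3 member tests in the clusters passed, each for Malat1 ASO against ATV:BACE1. With no filter on low counts the block gave 26 such calls over the 5 comparisons, beside 0.0855% of all tests. In cluster 0 Junb measured 23.7 and 28.7 CPM in replicates 1 and 5 of Malat1 ASO and 76.2, 8.82 and 65.0 CPM in replicates 1, 4 and 5 of ATV:BACE1. The log2 change of Junb there was -1.20 ± 0.22 (adjusted p = 0.0455 with the block, 1.00 without) and that of Egr1 -1.11 ± 0.20 (adjusted p = 0.0447, 1.00 without), beside 0.0325% of all genes called lower. In cluster 2 Nr4a1 was higher by 0.47 ± 0.09 (adjusted p = 0.0484, 1.00 without), beside 0.15% of all genes called higher, at 71.1 and 54.9 CPM in Malat1 ASO against 51.8, 29.9 and 42.4 CPM in ATV:BACE1. Since Malat1 ASO has no replicate 4 here, these contrasts rest on replicates 1 and 5 of that group. The Nr4a1 call was lost when replicates 1 and 5 alone were fitted with the block (0.49 ± 0.11, adjusted p = 0.123).

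Replicates 1 and 5 alone, with the block, were fitted as an alternative added after the values were seen. Junb of OTV:Malat1 was then called lower, against ATV:BACE1, in all nuclei (-1.02 ± 0.10, adjusted p = 0.0443), in cluster 0 (-1.33 ± 0.13, adjusted p = 0.00585), in cluster 2 (-1.15 ± 0.17, adjusted p = 0.0187) and in cluster 5 (-1.04 ± 0.20, adjusted p = 0.0152). Over all genes 0.00469%, 0.00542%, 0.0241% and 0.0212% were called lower, in the same order. In neurons Junb gave adjusted p = 0.0519. Junb was also called lower in nonTV:Malat1 (-1.21 ± 0.13, adjusted p = 0.0169) and in Malat1 ASO (-1.37 ± 0.13, adjusted p = 0.00502) of cluster 0, and in both groups in cluster 5 (-1.12 ± 0.21 and -0.97 ± 0.21), beside 0.00542% and 0.0271% of all genes lower in cluster 0 and 0.00708% and 0.0425% in cluster 5. The other members called were Egr1 in Malat1 ASO of cluster 0 (-1.25 ± 0.15, adjusted p = 0.0124) and Btg2 in OTV:Malat1 of cluster 2 (-0.89 ± 0.15, adjusted p = 0.0419). These comparisons share the same ATV:BACE1 libraries, which were the highest for Junb. Without the block the same libraries gave 0 calls.

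The difference of the dosing contrast between neurons and astrocytes was tested in one model over both classes, for the 3 contrasts against ATV:BACE1. Of 20984 genes, 0 were called in each, with 651 at an unadjusted p under 0.05 for OTV:Malat1. Fos was the member with the lowest p there: its change in neurons minus that in astrocytes was -1.53 ± 0.35 (unadjusted p = 9.89e-05, adjusted p = 1.00). Junb (-1.02 ± 0.26), Egr4 (-0.91 ± 0.40), Npas4 (-0.88 ± 0.40), Arc (-0.82 ± 0.36), Egr1 (-0.74 ± 0.25) and Btg2 (-0.63 ± 0.28) also had an unadjusted p under 0.05. Fosb (-0.29 ± 0.83), Nr4a1 (-0.45 ± 0.25) and Egr3 (0.76 ± 0.40) did not. For nonTV:Malat1, Fos (-1.28 ± 0.35), Arc (-1.04 ± 0.34) and Junb (-0.82 ± 0.26) had an unadjusted p under 0.05, beside 567 of all genes. For Malat1 ASO, Fos (-1.20 ± 0.38), Npas4 (-1.01 ± 0.41), Junb (-0.72 ± 0.29), Egr1 (-0.65 ± 0.28) and Nr4a1 (-0.55 ± 0.26) did, beside 768. The remaining members did not. All 3 contrasts share the ATV:BACE1 libraries. The astrocyte sums of all 11 libraries held 262 Fos UMIs, and the part of RNA from other nuclei in them was not tested. In the contrast of OTV:Malat1 with ATV:BACE1, astrocyte Fos measured 9.92, 5.35 and 9.20 CPM in replicates 1, 4 and 5 of ATV:BACE1. It measured 19.9, 10.5 and 12.9 CPM in those of OTV:Malat1. Leaving out a Malat1 ASO library, which is in the fit but not in this contrast, left the Fos difference at -1.53 and brought it to adjusted p = 0.0145 (without replicate 1) or 0.0361 (without replicate 5), and Junb to 0.0171 (without replicate 1), beside 3 of 22025 genes called without replicate 1 (0.0136%) and 2 of 21811 without replicate 5 (0.00917%).

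In the activity lists, 0 genes were called between dosing groups in all nuclei. For OTV:Malat1 against ATV:BACE1 the largest log2 changes were 0.74 ± 0.30 (Nr4a3), 0.54 ± 0.28 (Csrnp1) and -0.46 ± 0.56 (Ier2) among primary-response genes. Homer1 gave 0.43 ± 0.26, Pcsk1 0.40 ± 0.17 and Rgs2 -0.33 ± 0.28 among late genes, and Mef2d 0.14 ± 0.12, Mef2c -0.10 ± 0.14 and Creb1 -0.08 ± 0.07 among regulators. Each had an adjusted p of 1.00.

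Most RNA of these genes was counted in neurons. Of 93769 UMIs of the 10 genes, neurons held 89.1%, beside 87.5% of all UMIs and 69.1% of nuclei. The share was highest for Nr4a1 (95.5%), Fosb (95.4%) and Npas4 (94.1%) and lowest for Btg2 (78.6%) and Egr1 (84.8%). Classes and clusters were taken as deposited, and the genes used to define them, which may include these 10, are not known here. Levels across them are therefore descriptions with no test.

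In the neuronal clusters, cluster 2 had the highest mean for 7 genes: Fosb (8.65 CPM), Junb (57.0), Egr1 (41.9), Egr3 (27.5), Egr4 (21.5), Arc (26.1) and Npas4 (17.7). It lay above cluster 0 in all 11 libraries for Junb, and in 10 of 11 for Fos, Fosb, Egr1, Egr3, Egr4 and Npas4, but in 5 of 11 for Arc, so that those clusters did not separate for Arc. Nr4a1 was the reverse: cluster 0 averaged 77.6 ± 17.5 CPM (SD, n = 11) and cluster 2 51.0 ± 12.8, with cluster 0 higher in every library. Btg2 varied least, from 20.7 CPM in cluster 9 to 28.0 in cluster 0. Cluster 1 had the highest Fos mean, 10.9 ± 4.06 CPM, above cluster 2 in 8 of 11 libraries, and the lowest Arc mean, 7.75 ± 2.73, beside 24.5 ± 17.0 in cluster 0. Cluster 9 had the lowest mean for 8 of the 10.

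Outside neurons Btg2 and Junb were high in the vascular classes and in leptomeningeal cells. Leptomeningeal cells held 2.08% of the Btg2 UMIs (254) and 1.82% of the Junb UMIs (267), beside 0.688% of all UMIs. Microglia held 0.860% of the Btg2 UMIs (105), beside 0.315% of all UMIs. Btg2 averaged 302 ± 110 CPM in vascular endothelium and 290 ± 101 in the pericyte class, against 26.4 ± 12.3 in neurons (SD, n = 11), and Junb 127 ± 51.9 and 92.8 ± 36.5 against 34.9 ± 21.3. Leptomeningeal cells carried Junb at 99.8 ± 26.4, Egr1 at 77.8 ± 22.9 and Fos at 24.9 ± 13.1 CPM. The vascular sums held the neuronal gene Syt1 at 307 CPM (endothelium) and 226 CPM (pericyte class), against 2851 CPM in neurons, and the part of RNA from other nuclei in these values was not tested. Nr4a1 and Fosb were low in oligodendrocytes, at 13.6 ± 5.65 and 1.41 ± 0.94 CPM against 58.5 ± 12.7 and 5.99 ± 1.82 in neurons, but not in all other classes: leptomeningeal cells carried them at 42.5 ± 21.5 and 8.52 ± 9.78 CPM, the latter from 19 UMIs. Egr1 did not separate, at 40.9 ± 9.04 CPM in oligodendrocytes, 36.6 ± 10.1 in astrocytes and 31.6 ± 13.1 in neurons.

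The summed level of the 10 genes was lowest in replicate 4 in most of the other classes too. In neurons it averaged 300 ± 69.9 CPM in replicate 1 (n = 4), 118 ± 11.8 in replicate 4 (n = 3) and 242 ± 49.3 in replicate 5 (n = 4). In astrocytes the means were 182, 108 and 162 CPM, in oligodendrocytes 184, 101 and 157, and in vascular endothelium 761, 417 and 590, in the same order. Leptomeningeal cells went the other way, at 368 ± 97.7, 424 ± 59.6 and 382 ± 52.2 CPM, with replicate 4 highest by less than the spread in replicate 1.

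**Figure D3:**
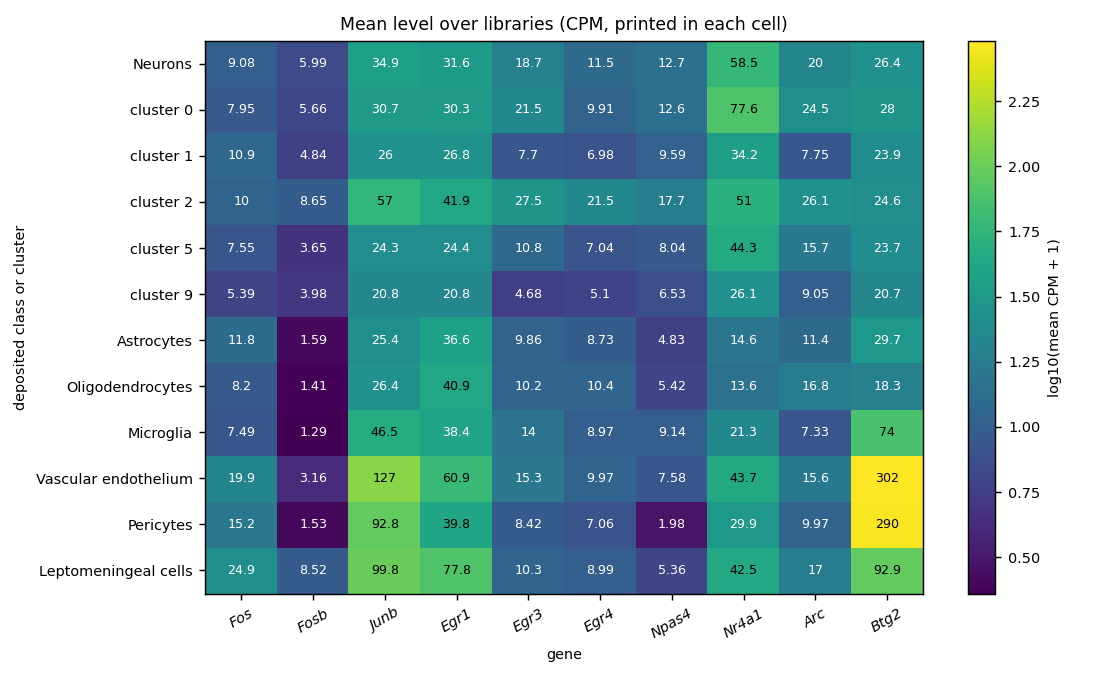
Mean level over libraries of each gene (x axis) in each deposited class and neuronal cluster (y axis), with the mean CPM printed in each cell and colour on a log10(mean CPM + 1) scale. Btg2 reaches 302 CPM in vascular endothelium, and cluster 2 holds the highest neuronal means of 7 genes.

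The share of nuclei with at least 1 UMI of a gene depends on depth, and neurons were deeper than other nuclei (median 3926 UMIs, against 1402 in astrocytes and 947 in oligodendrocytes). Without correction, 20.8% of neurons had an Nr4a1 UMI, 12.3% an Egr1 UMI, 11.4% a Junb UMI and 2.05% a Fosb UMI (means of 11 libraries). Each nucleus was therefore thinned at random to 1000 UMIs, which left out 2.60% to 3.80% of neurons per group, 18.6% to 28.7% of astrocytes and 49.3% to 60.4% of oligodendrocytes. By library the part left out ran from 9.58% to 20.9% of astrocytes in replicate 1, 10.4% to 29.6% in replicate 4 and 28.3% to 62.8% in replicate 5, and from 37.7% to 48.8%, 43.7% to 68.0% and 59.2% to 81.5% of oligodendrocytes. After thinning the share of neurons was 5.45% ± 1.27 for Nr4a1 (SD, n = 11), 3.33% ± 1.87 for Junb, 3.15% ± 1.29 for Egr1, 2.56% ± 1.13 for Btg2 and 1.92% ± 1.17 for Arc. It was 1.79% ± 0.633 for Egr3, 1.21% ± 0.521 for Npas4, 1.15% ± 0.683 for Egr4, 0.896% ± 0.453 for Fos and 0.548% ± 0.206 for Fosb.

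Oligodendrocytes served as the class in which the neuronal genes Npas4 and Arc are not known to be induced. Neurons lay above oligodendrocytes in all 11 libraries for Nr4a1 (oligodendrocytes 1.31% ± 0.809), Egr3 (0.814% ± 0.523) and Fosb (0.107% ± 0.138), and in 10 of 11 for Npas4 (0.538% ± 0.284). For Arc they did so in 6 of 11 libraries (oligodendrocytes 1.45% ± 0.821), for Egr4 in 7, for Fos and Btg2 in 8 and for Junb in 9. Egr1 was above in 4 of 11, with 3.41% ± 1.24 of oligodendrocytes. Oligodendrocytes averaged 0.923% ± 0.569 for Egr4, 0.694% ± 0.539 for Fos, 1.63% ± 0.701 for Btg2 and 2.10% ± 1.25 for Junb. At 1000 UMIs per nucleus neurons thus lay above oligodendrocytes in 8 or fewer of 11 libraries for Egr1, Arc, Egr4, Fos and Btg2. The shares of these genes were not distinguished between the classes here, and no test was made.

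By replicate number, the share of neurons with Junb was 4.42% ± 1.93 in replicate 1 (SD, n = 4), 1.19% ± 0.142 in replicate 4 (n = 3) and 3.85% ± 1.20 in replicate 5 (n = 4). For Arc it was 2.71%, 0.543% and 2.17%, for Egr4 1.70%, 0.428% and 1.13%, for Fos 1.18%, 0.399% and 0.986%, and for Nr4a1 6.64%, 3.87% and 5.45%, in the same order. At this depth a share of nuclei follows the level closely, so that it does not tell fewer nuclei with the RNA from less RNA per nucleus. Arc showed the same order in astrocytes, at 1.61%, 0.887% and 1.19%, and in oligodendrocytes, at 1.92%, 0.644% and 1.60%. Egr1 in oligodendrocytes was 4.36%, 3.23% and 2.59%, with replicate 5 lowest. The part of glial nuclei left out by thinning also differed by replicate number, as given above, and its part in these glial shares was not tested.

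Between dosing groups the shares in neurons overlapped in all 50 comparisons of a gene between groups, while 8.4% of such comparisons over all genes tested in neurons did not overlap. The exact permutation p (both directions counted) ran from 0.4 to 1.0, with adjusted values of 0.952 or more over the 50. With 3 libraries against 3 the smallest p this test can give is 0.1, and with 3 against 2 it is 0.2, so the design could not reach 0.05. For Fos the mean was 0.765% in OTV:Malat1 and 1.18% in ATV:BACE1. Without replicate 4 of ATV:BACE1, 21 of the 50 comparisons no longer overlapped (15.8% over all genes), and without replicate 1 of OTV:Malat1 it was 9 (15.2%). The groups then hold different replicate numbers, so these counts also hold the difference between replicate numbers. They are no measure of dosing alone.

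**Figure D4:**
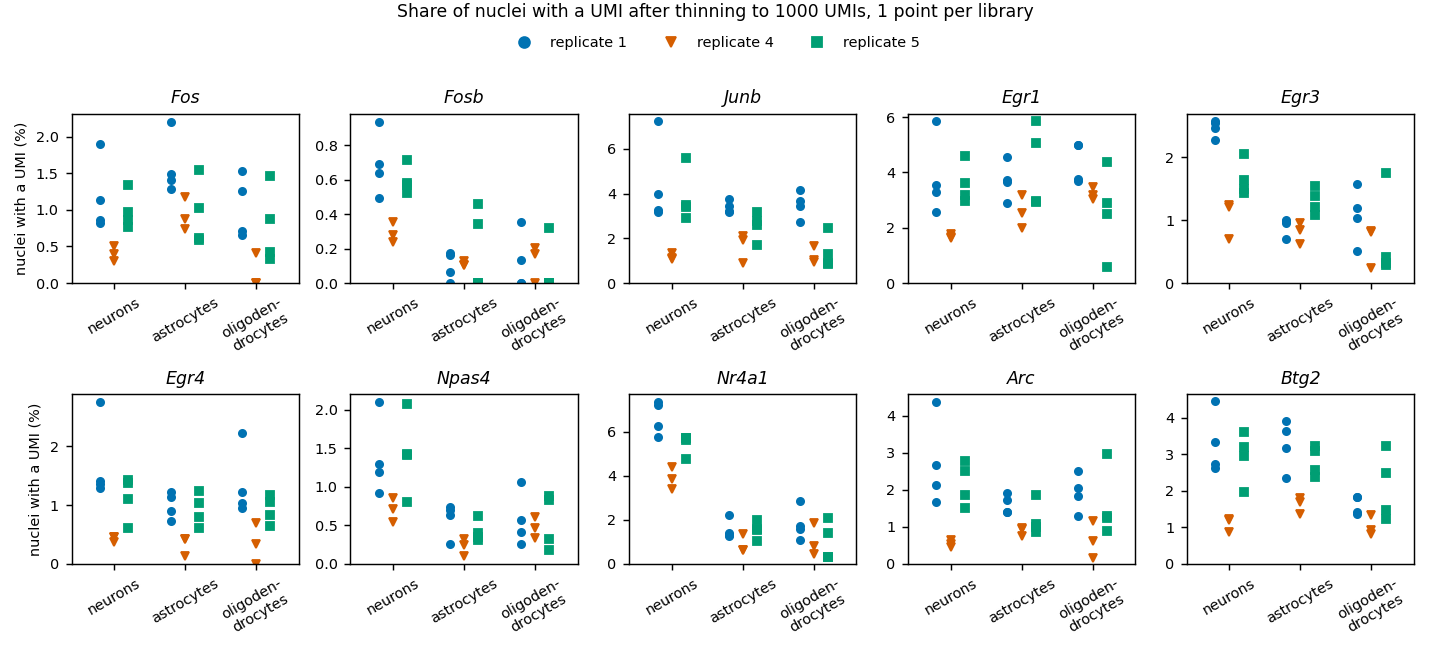
Share of nuclei with at least 1 UMI after thinning to 1000 UMIs (y axis, percent) in neurons, astrocytes and oligodendrocytes (x axis), with 1 point per library marked by replicate number. Nr4a1 separates neurons (5.45% on average) from oligodendrocytes (1.31%), and Egr1 does not (3.15% and 3.41%).

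Several of these RNAs were detected in one nucleus in a share of neurons that depended on depth. Of 73903 thinned neurons, 17.7% had at least 1 of the 10 genes (8.98% to 26.1% per library), 3.33% had 2 or more, 0.930% had 3 or more (687 nuclei) and 0.276% had 4 or more (204 nuclei). At 2000 UMIs per nucleus 2.93% of 64498 neurons had 3 or more, and without thinning 8.68% of 76211 (2.27% to 17.5% per library). The share with 3 or more was 2.56%, 0.132% and 1.31% in replicates 1, 4 and 5 of ATV:BACE1, 1.12%, 0.236% and 0.865% in nonTV:Malat1, 1.10%, 0.250% and 0.475% in OTV:Malat1, and 0.943% and 1.02% in Malat1 ASO. The replicate 4 libraries were again lowest, and the groups overlapped. In astrocytes 10 of 9776 nuclei had 3 or more, and in oligodendrocytes 2 of 6449.

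Pairs of genes were found together more often than the product of their shares within each library and cluster, for all 45 pairs. Fos and Fosb were together in 46 nuclei, 10.4 times the product: 6.75% of neurons with Fos also had Fosb. Fosb and Egr4 followed at 8.57 times (56 nuclei) and Fosb and Npas4 at 7.83 times (47 nuclei). Egr1 and Nr4a1 had the lowest ratio, 1.51 (209 nuclei). These ratios are given with no test, since nuclei of a library are not replicates.

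**Figure D5:**
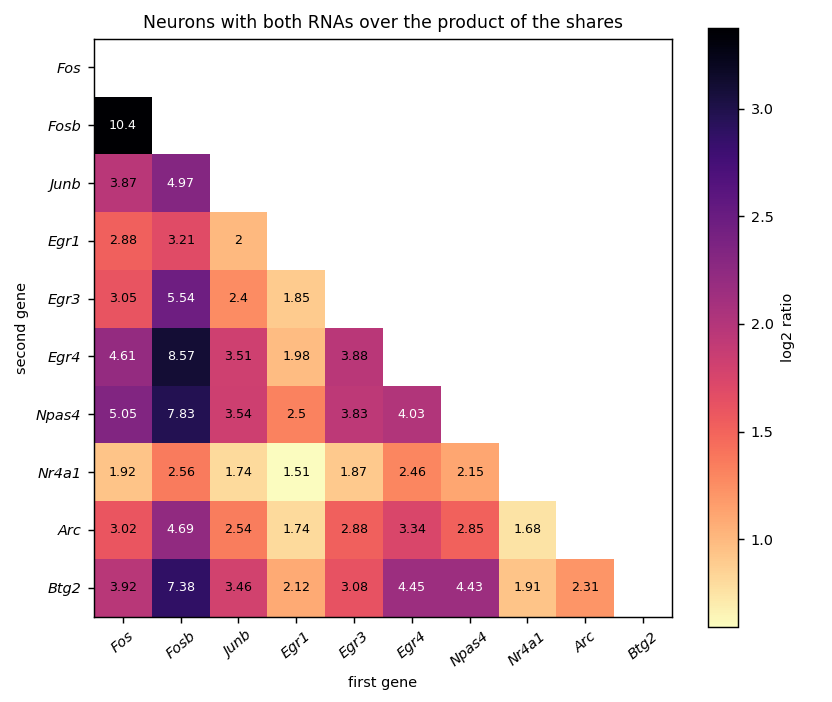
Ratio of the number of thinned neurons with both RNAs to the product of the shares within library and cluster, on a log2 colour scale, for each pair of genes (both axes). All 45 pairs lie above a ratio of 1, with Fos and Fosb at 10.4 and Egr1 and Nr4a1 at 1.51.

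Across the 11 neuron sums, with log2 CPM centred within each replicate number, the correlation between pairs of the 10 genes had a median Pearson r of 0.78 and ran from -0.50 to 0.98. Nr4a1 gave the lowest value, with Egr1, and -0.42 with Junb. Egr3 gave -0.20 with Egr1 and -0.12 with Junb, but 0.73 with Nr4a1 and 0.60 with Fosb. This is a description of 11 libraries that share batches. By the naming rule, the 5 genes outside the 10 whose log2 CPM was most like the mean of the 10 over these libraries, among 20887 compared, were Hcn2 (Pearson r = 0.988, Spearman's rho = 0.945), Pitpnb (0.986 and 0.900), Tmem121b (0.986 and 0.964), 3110056K07Rik (0.981 and 0.918) and Med21 (0.980 and 0.909). These values were not centred, and the replicate 4 libraries, low for the 10 genes, stand apart in them.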

How the data were processed

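The 10 genes and the lists set beside them were chosen with earlier results of these data known. The deposited UMI counts per gene and nucleus were made with Cell Ranger 5.0.0 and Seurat 4 on mm10, per the submitters' processing notes. Clusters, classes, batch numbers, doublet calls and the mitochondrial percent of each nucleus are the authors' deposited metadata. That percent was at most 2.39 and was not used as a filter here. Counts were summed per library and class or cluster, leaving out sums of under 20 nuclei. Sums were tested with edgeR 4.0.16 in R 4.3.3 (filterByExpr, TMM, quasi-likelihood, Benjamini-Hochberg over all genes, threshold 0.05). One fit held the 4 dosing groups with no block, another the group and replicate number. DESeq2 1.42.0 was an alternative. An adjusted p of 1.00 is rounded.

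Libraries with the same replicate number share a deposited batch: their deviations from the group means correlated at 0.371 to 0.844 over 15 pairs, and those of different numbers at -0.835 to 0.270 over 30 pairs (5305 genes). The test was first tried on simulated counts with known changes. Named genes were the 10, called genes of the lists, the 3 of each list with the largest change in all nuclei of OTV:Malat1 against ATV:BACE1, and the 5 genes most like the mean of the 10 (log2 CPM, prior count 2). Thinning used a fixed seed. The strand setting of the counting was not given in the sources used here, so overlapping antisense RNA cannot be told apart from these genes.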

Additional observations from a re-analysis of the deposited data

How the results depend on the processing

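Member tests called between dosing groups in all nuclei went from 0 to 1 with DESeq2 and the replicate block (Egr1, Malat1 ASO against ATV:BACE1) and to 1 with replicates 1 and 5 alone and the block (Junb). In the deposited classes DESeq2 with the block gave 2 in place of 0 (Egr1 and Egr3 in neurons, Malat1 ASO against ATV:BACE1). In the clusters the replicate block gave 3 in place of 0, no filter on low counts with the block 26 (0.0855% of all tests), and replicates 1 and 5 alone with the block 9. Among the fits counted with the block (main, no filter, DESeq2, and replicates 1 and 5 alone), no other call of these genes changed. The remaining alternatives between dosing groups were counted without the block. Comparisons of a share of neurons whose groups did not overlap went from 0 of 50 to 1 without thinning, 4 with thinning to 500 UMIs and 3 without called doublets (over all genes 8.4%, 6.01%, 9.61% and 8.67%), and ran from 0 to 21 when 1 library was left out (11.4% to 22.2% over all genes). Calls in the test between neurons and astrocytes ran from 0 to 2 when 1 library was left out. Leaving out 1 library leaves the replicate numbers unequal between groups, so these counts also hold the difference between replicate numbers. The cause was not tested.

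Between replicate numbers, the counts of calls (23 in all nuclei, 33 in the classes, 76 in the clusters) stayed within 1.5 times under every alternative run when pooled in this way. Step by step they did not: in neurons 0 of the 3 counts moved further, but 2 of 3 did in all nuclei, 6 of 6 in astrocytes and oligodendrocytes, and 12 of 15 in the clusters, with the values given beside each class or cluster. Counts of 0 became 1 in astrocytes (4 to 5; total counts, or without replicate 1 of OTV:Malat1 or 5 of nonTV:Malat1), in oligodendrocytes (1 to 5; no filter, or without nuclei under 1000 UMIs) and in clusters 5 and 9 (1 to 5; no filter). In cluster 9 that count was also 1 without replicate 1 or 5 of ATV:BACE1 or replicate 1 of nonTV:Malat1. In oligodendrocytes the calls from 4 to 5 went from 1 to 3 with total counts and to 2 without called doublets. Of 22 calls in neurons, 19 held in all 17 settings, and 0 changed sign. Of the 50 dosing changes in neurons, 22 changed sign in at least 1 of 17 settings. Outside neurons these genes had fewer UMIs, which limits the size of change that was detectable there. In oligodendrocytes these ran from 24 for Fosb to 691 for Egr1, against 2172 and 11503 in neurons.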
